A study of Sus scrofa with 12 samples.

Results

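The genes described here are the fast-fibre sarcomere isoforms of pig longissimus dorsi muscle, measured by RNA-seq in 12 Iberian pigs. They were chosen by name, as the fast type II contractile isoforms and parvalbumin: MYH1, MYH2, MYH4, MYLPF, MYL1, TNNT3, TNNI2, TNNC2, ACTN3 and PVALB. Of these 10 genes, 7 were matched to 1 row each among the 25880 gene rows of the tables. MYLPF was matched through its current symbol, MYL11. The fast heavy chains MYH1, MYH2 and MYH4 were not matched to a row by symbol and were not analysed here.

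Muscle fibres contract when calcium binds the troponin complex on the thin filament and the motor heads of myosin then pull on actin. Fast and slow fibres build this machinery from different members of the same gene families, so that a fast fibre and a slow fibre each carry their own myosin light chains and troponins. Longissimus dorsi, the loin muscle, is known in pigs as a muscle rich in fast, glycolytic fibres. Myoglobin, the oxygen-binding pigment that makes meat red, is known to be most abundant in slow, oxidative fibres.

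The High MB and Low MB groups held 6 pigs each, castrated males of a closed Iberian population that were fattened outdoors on acorns and grass and chosen for extreme estimated breeding values for myoglobin content, with full siblings avoided. Muscle myoglobin ranged from 2.376 to 2.559 mg/g in the High MB group and from 1.226 to 1.58 mg/g in the Low MB group. The labels name no treatment beyond the shared feeding, and the design compares selected extremes of a single population. Each pig gave 1 library, counted by the authors per gene without normalization. The comparison asks which genes differ in expression between muscles of high and low genetic merit for myoglobin, and for the fast isoforms this covers the fast part of the contractile apparatus.

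Gene counts ranged from 38914271 to 91318334 per library and fell into 5 deep libraries (pigs 4 and 6 of the High MB and pigs 1, 5 and 6 of the Low MB group) and 7 standard ones, which had at most 40001432. Of the reads counted to a gene, to no feature or as ambiguous, 50.9% to 52.0% fell in no annotated feature. The skeletal muscle markers ACTA1 and CKM were abundant in every pig, from 18547 and 7455 CPM (counts scaled to library size, here with the trimmed mean of M-values). A single library stood apart: High MB pig 2 had the lowest summed level of the 4 measured muscle markers (ACTA1, CKM, DES and MYLPF, itself one of the fast genes), 37472 CPM, against 64067 to 115140 CPM in the Low MB pigs, and the highest summed level of the 3 leukocyte markers, 46.1 CPM. Of the cardiac markers, MYH6 as listed reached 3621 to 8063 CPM, while TNNT2 was at most 2.51 CPM and MYBPC3 at most 0.20 CPM and at 0 in at least 1 pig. Whether the MYH6 row holds reads of another heavy chain was not tested, and its level is uncertain.

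Promoter windows of 200 bases before each RefSeq gene start were read on Sscrofa11.1 for 6 of the 7 genes, all but MYLPF. Both strands were searched for the E-box CANNTG bound by MyoD-family factors, for the MEF2 motif and for the MEF3 motif TCAGGTT, and the gene's own strand for the TATA box TATAAA. The motifs do not overlap in these windows. An E-box was found in 1 of the 6 windows, against 53.3% of 19559 promoters, and a MEF2 motif in 2 of the 6, against 1.88%. No window held TATAAA, present in 4.96% of promoters, or TCAGGTT, present in 2.63%. The 3 windows with a match are shown 5′ to 3′ toward the gene start, with the matches in capitals. They are the windows of these fast genes in which a searched motif matched by sequence, and binding was not measured. The capitals mark E-boxes in TNNI2 (chr2:1251366-1251565, plus strand), and MEF2 motifs in MYL1 (chr15:113051316-113051515, minus strand) and PVALB (chr5:10953359-10953558, plus strand).
TNNI2: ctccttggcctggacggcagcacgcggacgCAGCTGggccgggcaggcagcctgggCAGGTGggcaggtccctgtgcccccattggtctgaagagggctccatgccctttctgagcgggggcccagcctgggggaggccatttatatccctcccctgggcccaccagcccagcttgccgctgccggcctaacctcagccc
MYL1: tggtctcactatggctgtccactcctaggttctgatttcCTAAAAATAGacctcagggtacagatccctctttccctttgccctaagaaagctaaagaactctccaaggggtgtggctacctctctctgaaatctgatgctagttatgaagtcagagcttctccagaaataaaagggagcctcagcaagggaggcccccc
PVALB: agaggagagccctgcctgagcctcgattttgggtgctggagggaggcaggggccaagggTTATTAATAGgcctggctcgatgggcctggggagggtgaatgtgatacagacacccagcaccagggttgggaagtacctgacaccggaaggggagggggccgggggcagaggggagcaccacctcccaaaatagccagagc
The first and second E-box of TNNI2 started 170 and 144 bases before the gene start. The MEF2 motif started 161 bases before MYL1 and 141 bases before PVALB. The windows of TNNT3, TNNC2 and ACTN3 held none of these letters.

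Per transcript length, the fast thin- and thick-filament genes were the more abundant member of each pair of isoforms. TNNC2, the fast troponin C that binds calcium, had the highest median of the 7 genes over the 12 pigs, 17329 CPM per kilobase, and MYLPF, the fast regulatory light chain, followed with 14108. MYL1, the fast alkali light chain, and TNNT3, the fast troponin T that ties the complex to tropomyosin, had medians of 11477 and 11280 CPM per kilobase, and TNNI2, the inhibitory subunit, had 9367. The ranges over the pigs overlapped between neighbours among these 5 genes, and the lowest of them in any pig, TNNI2 at 5564, lay above the highest partner in any pig, MYL2 at 5207. ACTN3, the Z-disc alpha-actinin of fast fibres, had 1938 CPM per kilobase, and PVALB, a cytosolic calcium buffer that is abundant in fast fibres of rodents, had 20.7. Among the slow and cardiac partners the highest was MYL2, with 2548 CPM per kilobase.

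**Figure D1:**
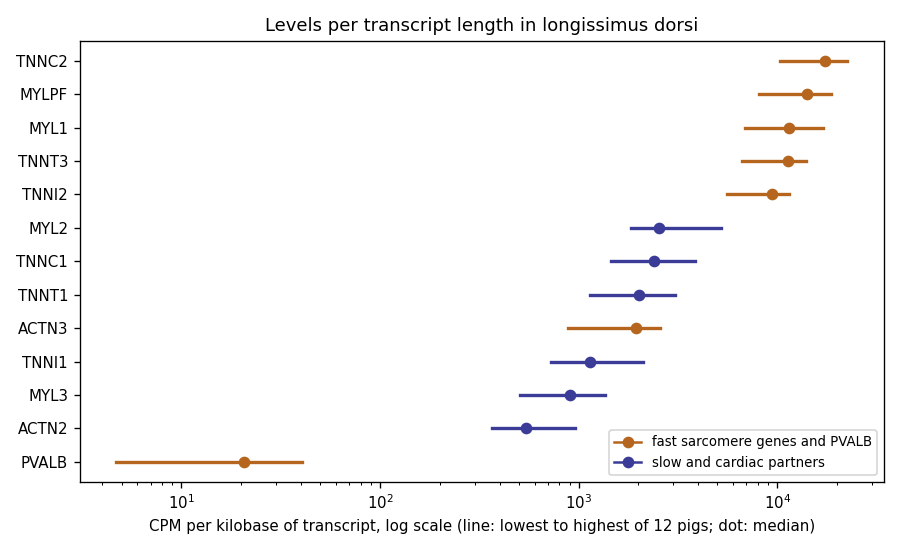
Levels of the 7 fast genes and of their 6 slow or cardiac partners in CPM per kilobase of transcript on a log axis; the line runs from the lowest to the highest of 12 pigs and the dot is the median. The 5 fast light chain and troponin genes lie above every partner, ACTN3 lies among the partners, and PVALB lies far below all other genes shown.

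The fast light chains were among the most abundant transcripts of the muscle. MYLPF (ENSSSCG00000007799, chromosome 3, 17938129 to 17941071, minus strand) ranked 15th among all genes by summed count, which is uncertain because of the neighbouring SEPTIN1 row described below. Its level in the High MB pigs was 5315 CPM at the lowest, 9283 at the median and 11858 at the highest, and in the Low MB pigs 8122, 9523 and 12237 CPM. The groups overlapped, with High MB pig 2 below all other pigs. MYL1 (ENSSSCG00000016157, chromosome 15, 113038083 to 113051315) ranked 11th and had 5910, 9802 and 12117 CPM in the High MB pigs and 9186, 10674 and 14568 CPM in the Low MB pigs. High MB pig 2 was again the lowest of all, and Low MB pig 5 was the highest.

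The 3 fast troponin genes gave the same picture of overlapping groups. TNNT3 (ENSSSCG00000031903, chromosome 2, 1297826 to 1316865) had 5575 CPM at the lowest, 9743 at the median and 11720 at the highest in the High MB pigs, and 8472, 9224 and 11682 CPM in the Low MB pigs. TNNI2 (ENSSSCG00000033260, chromosome 2, 1251566 to 1253883) had 3772, 6317 and 7620 CPM in the High MB pigs and 5279, 6515 and 7807 CPM in the Low MB pigs. For both genes the lowest value belonged to High MB pig 2, and every other pig of that group lay above the lowest Low MB pig. TNNC2 (ENSSSCG00000007424, chromosome 17, 48025621 to 48026762) had 5006, 8137 and 10443 CPM in the High MB pigs and 7746, 8398 and 10860 CPM in the Low MB pigs. Its annotated span overlaps a long noncoding RNA on the other strand, LOC110257453, by 570 bases. Because the strand setting of the counting is not given in the sources used here, reads from the overlap cannot be told apart between them.

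ACTN3 (ENSSSCG00000038323, chromosome 2, 5860386 to 5873779) had the largest spread of the abundant genes in terms of fold, 2.89 from the lowest to the highest pig, against 2.07 for TNNI2. Its level in the High MB pigs was 2638 CPM at the lowest, 5103 at the median and 6846 at the highest, and in the Low MB pigs 5528, 6519 and 7634 CPM. The lowest value, on which the fold spread rests, was that of High MB pig 2. The next lowest was that of High MB pig 5, at 4997 CPM. In the High MB group 4 of the 6 pigs lay below every Low MB pig, and the deep libraries of High MB pigs 4 and 6 overlapped with the Low MB group.

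PVALB (ENSSSCG00000000138, chromosome 5, 10953559 to 10973300) was weakly expressed, with 98 counts in the pig of fewest counts. Its level was 3.94 CPM at the lowest, 11.06 at the median and 21.8 at the highest in the High MB pigs, and 2.51, 9.65 and 13.6 CPM in the Low MB pigs. It varied 8.66-fold over the 12 pigs, and the standard deviation of its log2 CPM, 1.03, exceeded that of 95.8% of all 13373 genes tested. The 6 abundant fast genes had standard deviations from 0.28 to 0.40, against a median of 0.33 over all genes tested.

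**Figure D2:**
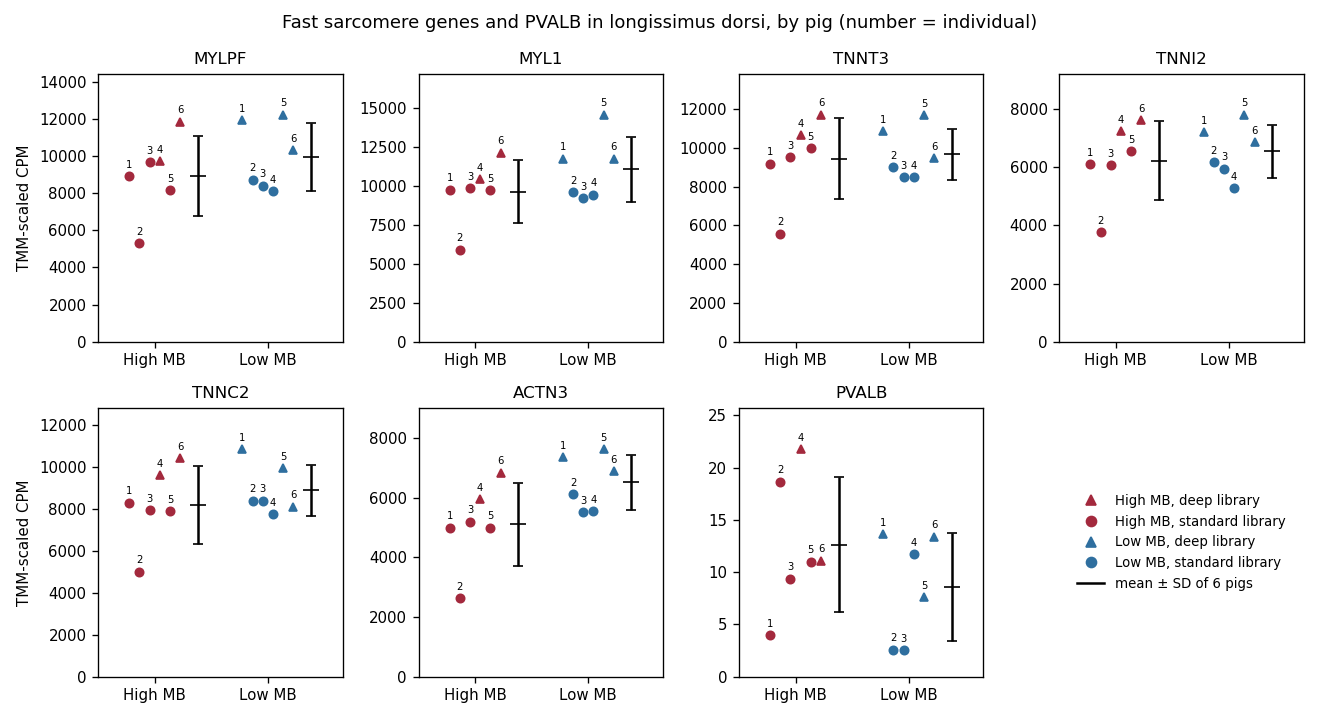
Level of each of the 7 genes in scaled CPM for every pig of the High MB and Low MB groups; triangles are deep and circles standard libraries, numbers are individuals, and the bar is the mean ± SD of 6 pigs. High MB pig 2 is the lowest of the 12 pigs in the 6 abundant genes and the second highest in PVALB.

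The 6 abundant fast genes shared their extreme pigs. High MB pig 2 was the lowest of the 12 pigs in 6 of the 6, at 56.9% of the median on average, and Low MB pig 5 was the highest in 4. PVALB did not share this order: it was second highest in High MB pig 2, at 18.6 CPM, and below its median in Low MB pig 5, at 7.59 CPM. The 7 genes together took 3.43% to 6.17% of the gene counts of a library, with 4.86 ± 0.92% (SD, n = 6) in the High MB pigs and 5.08 ± 0.54% (SD, n = 6) in the Low MB pigs. The difference, -0.22 percentage points for High MB minus Low MB, was smaller than the spread within either group. Without High MB pig 2 the difference was 0.066, and within the deep libraries it was 0.28.

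Over the 7 standard libraries, Pearson's r of log2 CPM between pairs of the 6 abundant genes was 0.88 to 0.98 in 15 pairs. The exact permutation p ranged from 0.00179 to 0.128, and from 0.0188 to 0.158 after Benjamini-Hochberg adjustment over 21 pairs. Spearman's rho was -0.11 to 0.86 (permutation p from 0.0238 to 0.963, adjusted 0.167 to 0.963), and r without the 2 pigs farthest from the median was -0.63 to 0.80. The pairs differed in how far r rested on the farthest pigs, High MB pig 2 among them: without those pigs it was 0.80 for MYLPF with TNNC2 and 0.76 for MYL1 with TNNT3, and the median over the 15 pairs was 0.30. PVALB had r of -0.70 to -0.44 with the other 6 genes, and rho of -1 with TNNC2 (permutation p = 0.000397, adjusted 0.00833). Without the 2 farthest pigs, r of PVALB with TNNC2 was -0.97 in the remaining 5 and with MYLPF -0.74. It was -0.14 with ACTN3, -0.091 with MYL1, 0.12 with TNNT3 and 0.63 with TNNI2, so that no common relation of PVALB to the other genes held. In the order of PVALB and TNNC2, Low MB pigs 2 and 3 were nearly tied, with 8397 and 8399 CPM of TNNC2 and 2.58 and 2.51 of PVALB. The deep libraries were not part of these relations. Among them the highest TNNC2, 10860 CPM in Low MB pig 1, went with 13.6 CPM of PVALB. The lowest, 8112 CPM in Low MB pig 6, went with 13.4.

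The levels of the 6 abundant fast genes also differed with the depth class of the library. The share of counts on the 7 genes was 5.33% to 6.17% in the 5 deep libraries and 3.43% to 4.90% in the 7 standard libraries, without overlap. Exact two-sided permutation tests of log2 CPM gave p below 0.05, with the deep libraries higher, for the 6 abundant genes, against 5.3% of all genes tested. MYL1 was higher in the deep libraries by 0.43 on the log2 scale (permutation p = 0.00126) and ACTN3 by 0.51 (permutation p = 0.00631). In an edgeR fit with the group as a covariate, the deep libraries were higher by 0.34 to 0.44 on the log2 scale in the 6 genes, with adjusted p-values of 0.29 to 0.36. That fit called 0 of 13373 genes (0.0%) at an adjusted p of 0.10 with a log2 change of more than 0.58 either way, and 1854 had an unadjusted p below 0.05. Both groups held deep and standard libraries, and group differences of the ratios and of some single genes are therefore also given within the classes.

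**Figure D3:**
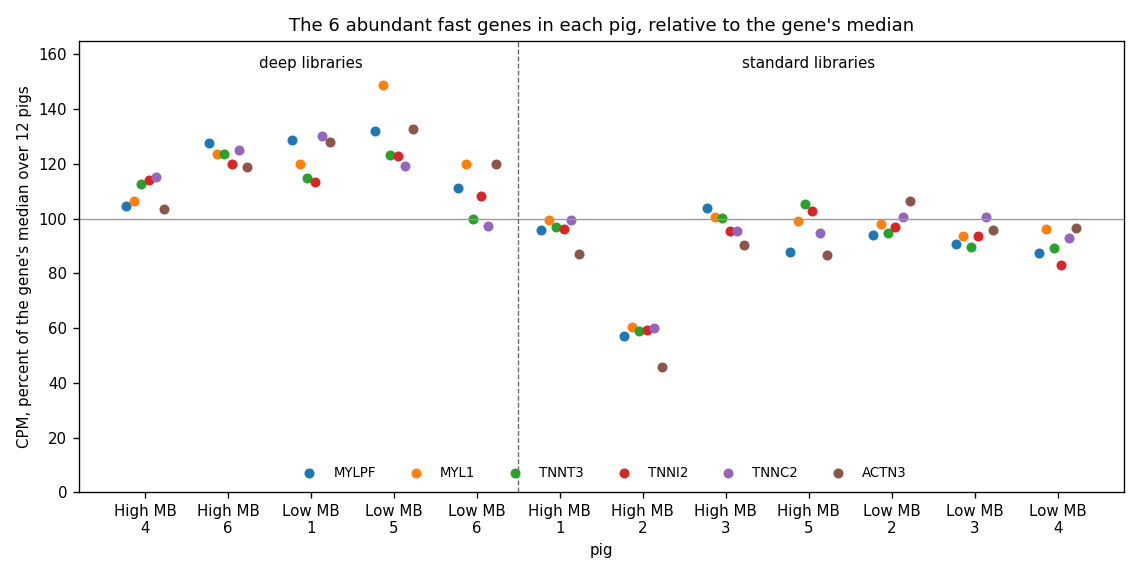
CPM of the 6 abundant fast genes in each pig as a percentage of the gene's median over the 12 pigs (line at 100), with the 5 deep libraries on the left and the 7 standard libraries on the right. High MB pig 2 lies at 56.9% on average over the 6 genes, and Low MB pig 5 at 129.7%.

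When the High MB group was set against the Low MB group, none of the 7 fast genes passed the test. In edgeR's quasi-likelihood test the log2 fold change of High MB over Low MB was -0.16 for MYLPF (standard error 0.19, adjusted p = 0.85) and -0.20 for MYL1 (standard error 0.18, adjusted p = 0.78). Within 2 standard errors, the MYL1 difference ran from -0.57 to 0.17. Without High MB pig 2 the values were -0.022 for MYLPF and -0.071 for MYL1. Without Low MB pig 5 they were -0.089 and -0.10, and MYLPF was -0.097 without Low MB pig 1 and -0.25 without High MB pig 6. Within the deep libraries MYLPF and MYL1 had -0.052 and -0.13, and within the standard ones -0.062 and -0.086. With the depth class as a covariate the values were -0.080 and -0.13. For the troponins the log2 fold changes were -0.03 for TNNT3, -0.07 for TNNI2 and -0.12 for TNNC2, with standard errors of 0.17 to 0.18 and adjusted p-values of 0.88 to 0.97. Without High MB pig 2 these 3 became 0.10, 0.059 and 0.012. TNNT3 was also above 0 without Low MB pig 1 or Low MB pig 5, with upper quartile factors and with the depth class as a covariate.

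ACTN3 had the lowest value of the 7, -0.35 on the log2 scale (standard error 0.20, unadjusted p = 0.0953, adjusted p = 0.63 in edgeR). Its interval of 2 standard errors ran from -0.75 to 0.04. Without High MB pig 2 the value moved to -0.20, and it was -0.15 within the deep libraries. PVALB had the opposite sign, 0.56 (standard error 0.46, adjusted p = 0.75), with an interval from -0.35 to 1.47. It was 0.33 without High MB pig 4 and 0.94 within the standard libraries. In all, 6 of the 7 genes had values below 0, against 53.1% of all genes tested, and their median was -0.12 against -0.02 over all genes. When High MB pig 2 was left out, 3 of the 7 lay below 0, with a median of 0.012.

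No gene of the whole table was called in this comparison, 0 of 13373 (0.0%), at an adjusted p under 0.10 with a log2 change of more than 0.58 either way. An unadjusted p below 0.05 was reached by 1132 genes (8.46%), 713 of them higher in the High MB group (5.33%) and 419 lower (3.13%), and by 0 of the 7 fast genes. With upper quartile factors in place of the trimmed mean, 914 were higher and 201 lower. DESeq2 called 29 genes (0.151% of 19158), and none of the fast genes, whose smallest adjusted p was 0.61 for ACTN3.

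The slow partners of these genes lay above 0, except ACTN2. Of the 6 measured slow and cardiac isoforms, 5 had an unadjusted edgeR p below 0.05 and a higher level in the High MB group, against 5.33% of all genes, and none had an adjusted p below 0.56. Without High MB pig 2 the same 5 had values of 0.55 to 0.68 and adjusted p-values of 0.42 to 0.47. TNNC1, the slow and cardiac troponin C, differed by 0.58 on the log2 scale (standard error 0.17, unadjusted p = 0.00373, adjusted p = 0.56). TNNT1 and TNNI1, the slow troponins T and I, had 0.56 and 0.58, and the light chains MYL2 and MYL3 had 0.51 each. ACTN2, the alpha-actinin of all fibres, had -0.17 (standard error 0.21, adjusted p = 0.86). MYH7, the slow heavy chain, was not analysed here.

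Other genes of the fast fibre lay below 0 in 6 of 6 cases, against 53.1% of all genes, with a median log2 fold change of -0.27, and none passed the adjusted test. High MB pig 2 was the lowest of its group in all 6, and without it 5 of the 6 lay below 0, with a median of -0.09 and none at an unadjusted p below 0.05. ATP2A1, the calcium pump of the fast sarcoplasmic reticulum, had -0.44 (standard error 0.20, unadjusted p = 0.0440, adjusted p = 0.58 in edgeR) and ranged from 3924 to 8926 CPM in the High MB pigs and from 8563 to 12882 in the Low MB pigs. TPM1, an alpha-tropomyosin of the thin filament, had -0.25, and MYBPC2, the fast myosin-binding protein C, had -0.30. CASQ1, the calcium-binding protein of the fast reticulum, had -0.22, MYOZ1, a Z-disc protein of fast fibres, -0.10, and MYLK2, the kinase that phosphorylates the regulatory light chain, -0.32.

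The developmental and extraocular heavy chains MYH3, MYH8 and MYH13, which neighbour the fast heavy chains in the genome, had medians of 45.6, 96.3 and 1.65 CPM over the 12 pigs. None of the 3 reached an unadjusted p below 0.05, and their log2 fold changes were -0.15, -0.17 and -0.06, which became 0.036, 0.0023 and 0.15 without High MB pig 2. Of the 8 listed regulators of the fast programme, 6 were measured and 0 reached an unadjusted p below 0.05. MAF, a large Maf factor linked to fast heavy chain expression, had -0.28, and SOX6, a repressor of slow genes, had -0.52 (standard error 0.28, unadjusted p = 0.0807, adjusted p = 0.61 in edgeR). When High MB pig 2 was left out these were -0.099 and -0.33.

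**Figure D4:**
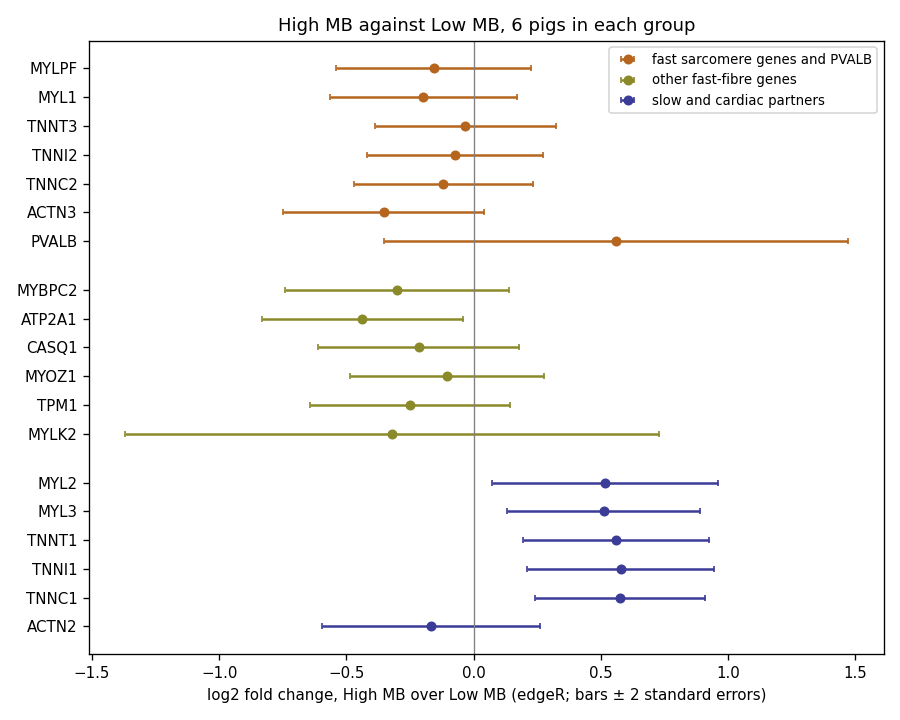
Log2 fold change of High MB over Low MB (edgeR, dot) with 2 standard errors on each side for the 7 fast genes, 6 other fast-fibre genes and 6 slow or cardiac partners. The fast genes other than PVALB lie between -0.35 and -0.03 with intervals that include 0, and 5 of the 6 partners lie between 0.51 and 0.58.

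The fast isoform had more counts than its slow partner in every pig. The ratio of the fast isoform to the partner was lower in the High MB group at an exact p below 0.05 for 5 of 6 pairs, and the mean difference had the same sign in the other pair. A ratio of counts within a library does not depend on how libraries are scaled to each other. It can still differ with the depth class, and those differences are given below. The clearest pair was TNNI2 over TNNI1. Its ratio was 2.94 at the lowest, 4.59 at the median and 5.75 at the highest in the High MB pigs, and 5.93, 6.83 and 8.68 in the Low MB pigs. Every High MB pig lay below every Low MB pig, which held for 0.381% of the ratios of TNNI2 to each other gene tested. On the log2 scale the difference was -0.66 (95% interval -1.07 to -0.25, exact permutation p = 0.00216, the smallest that 6 against 6 pigs can give).

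The calcium-binding and tropomyosin-binding troponins showed ratios of similar size. TNNC2 over TNNC1 was 4.16, 5.40 and 8.12 at the lowest, median and highest in the High MB pigs and 7.74, 9.30 and 11.2 in the Low MB pigs. The log2 difference was -0.72 (95% interval -1.15 to -0.30, exact permutation p = 0.00866), and High MB pig 6 was the only pig of its group inside the Low MB range. TNNT3 over TNNT1 was 3.25, 4.57 and 6.47 in the High MB pigs and 5.31, 7.29 and 9.67 in the Low MB pigs. Its log2 difference was -0.63 (95% interval -1.14 to -0.13, exact permutation p = 0.0238), with High MB pigs 4 and 6 inside the Low MB range. Without Low MB pig 1, 2 or 6 the exact permutation p for TNNT3 over TNNT1 was 0.0519.

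The light chains followed. MYLPF over MYL2 was 2.77, 4.48 and 6.10 at the lowest, median and highest in the High MB pigs and 5.47, 6.29 and 7.88 in the Low MB pigs, a log2 difference of -0.65 (95% interval -1.10 to -0.19, exact permutation p = 0.00866). MYL1 over MYL3 was 8.19, 12.4 and 21.6 in the High MB pigs and 14.7, 21.6 and 27.3 in the Low MB pigs, a log2 difference of -0.75 (95% interval -1.29 to -0.21, exact permutation p = 0.0173). High MB pig 6, a deep library, was inside the Low MB range in both, and High MB pig 4 in the second. ACTN3 over ACTN2 did not separate the groups, with 1.13, 1.89 and 3.91 in the High MB pigs and 1.21, 2.33 and 3.71 in the Low MB pigs (log2 difference -0.25, 95% interval -1.05 to 0.55, exact permutation p = 0.491).

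After Benjamini-Hochberg adjustment over the 6 ratios, the 5 permutation p-values were 0.013 to 0.0286 and that of ACTN3 over ACTN2 was 0.491. As a background, the share of all other genes that gave a lower ratio in the High MB group at an exact p below 0.05 was 7.42% with MYLPF, 10.5% with MYL1, 4.2% with TNNT3, 5.69% with TNNI2, 6.12% with TNNC2 and 22.6% with ACTN3 on top. The partners were named with earlier results of these data known. Taken singly, the log2 fold changes of the 5 fast genes were -0.20 to -0.03 and those of the 5 slow genes 0.51 to 0.58.

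The group differences of the ratios kept their direction in both depth classes and were smaller in the deep one. The ratios themselves were higher in the deep than in the standard libraries, by 0.39 to 0.58 on the log2 scale in the 5 pairs. The exact permutation p of this was 0.0429 for TNNT3 over TNNT1 and up to 0.157 for the others. ACTN3 over ACTN2 was higher by 0.98 (exact permutation p = 0.00253). In the 7 standard libraries (4 High MB, 3 Low MB) the log2 differences of the 5 pairs were -0.97 to -0.71, and in the 5 deep libraries (2 High MB, 3 Low MB) -0.39 to -0.28, where the smallest p possible is 0.1. In the planned subsets, the exact permutation p of the 5 pairs was 0.0286 to 0.0571 within the standard and 0.2 to 0.6 within the deep libraries. A test that was not planned permuted the group labels of all pigs within the depth classes only. It gave an exact permutation p of 0.00286 to 0.0114 for the 5 pairs. Markers of other cell types were also compared, and none passed the adjusted test (smallest adjusted p = 0.56 in edgeR). The summed level of the 4 fibroblast markers was 496 to 895 CPM in the High MB pigs and 254 to 665 in the Low MB pigs, and 2 of the 4 had an unadjusted edgeR p below 0.05 and were higher in the High MB group, against 5.33% of all genes. That of the 4 adipocyte markers was 53.0 to 221 CPM against 33.9 to 192, with 1 of the 4 below 0.05 and higher, and that of the 3 leukocyte markers 10.9 to 46.1 CPM against 6.76 to 18.3, with 1 of the 3, and 0 of the 3 without High MB pig 2. The 3 erythroid markers summed to 66.7 to 146 CPM against 38.3 to 84.4, with both tested markers below 0.05 and AHSP, which was not tested, at 0 in some pigs, and the 2 measured endothelial markers to 84.8 to 120 CPM against 53.8 to 139, with neither below 0.05. Of the 2 cardiac markers tested, TNNT2 was at 0.46 to 2.51 CPM in the High MB pigs and 0.052 to 0.78 in the Low MB pigs (log2 fold change 1.501, standard error 0.51, unadjusted p = 0.0109, adjusted p = 0.56 in edgeR), and the MYH6 row had 0.31 (adjusted p = 0.65). Their part in the ratios was not tested. In whole tissue, a different number of slow or fast fibres and a different amount of RNA per fibre cannot be told apart.

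**Figure D5:**
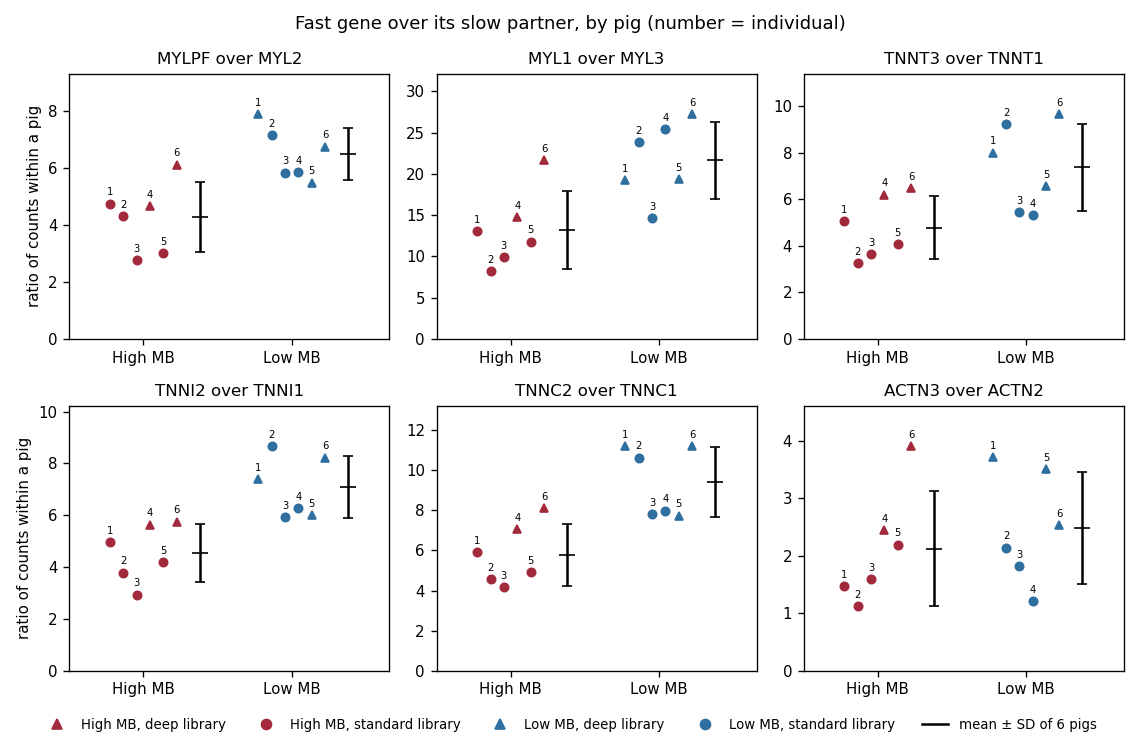
Ratio of the counts of each fast gene to those of its slow or cardiac partner within each pig, by group; triangles are deep and circles standard libraries, numbers are individuals, and the bar is the mean ± SD of 6 pigs. The groups do not overlap for TNNI2 over TNNI1, and they overlap fully for ACTN3 over ACTN2.

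Within the groups, no relation of a fast gene to the myoglobin content of the muscle passed a test. Pearson's r with the content given in the labels was between -0.49 and 0.25 over 14 relations (7 genes in 2 groups of 6 pigs), with a smallest exact permutation p of 0.308 and an adjusted p of 0.996. Spearman's rho was between -0.49 and 0.26, with a smallest exact permutation p of 0.356 and an adjusted p of 0.99. Without the 2 pigs of each group farthest from the median content, r ran from -0.60 to 0.39. The groups were too far apart in content for a relation over all 12 pigs.

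The genes most like MYLPF and PVALB over the 12 pigs were taken by Pearson's r of log2 CPM, as a description of pigs that share a depth class as well as a group. They were looked up after the values had been seen, since the heavy chains could not be used. MYLPF was most like SEPTIN1 (r = 0.99), CASQ1 (r = 0.97) and ZNF358 (r = 0.97). The count of SEPTIN1 (ENSSSCG00000007800) was 96.0% to 105.3% of that of MYLPF in each pig, and the RefSeq models of both genes lie on opposite strands of chromosome 3 with 179 bases between their ends. Whether the reads of these rows come from 1 or both genes cannot be told apart here. The level of MYLPF, its rank and its ratio to MYL2 are uncertain to that extent. PVALB was most like PLCB2 (r = 0.92), WAS (r = 0.90) and IRF8 (r = 0.88), genes known from white blood cells, which were at most 2.53, 2.66 and 4.67 CPM.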

How the data were processed

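The authors trimmed the paired reads with Trim Galore, used HISAT2 for alignment to Sscrofa11.1, and deposited raw HTSeq counts per gene, per the labels. The library kit does not mark strand, and the strand setting of the counting is not given in the sources used here. The 5 summary lines of each table were kept out of library sizes. Symbols were paired with 14857 of 25880 gene rows.

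Counts were tested with edgeR 4.0.16 in R 4.3.3 (TMM scaling, filterByExpr, glmQLFit and glmQLFTest, no covariate), with Benjamini-Hochberg adjustment over 13373 genes, after a check on simulated data. Standard errors came from the test statistic. CPM used the same scaling, and log2 CPM a prior count of 2. DESeq2 1.42.0, other scalings, filters and subsets of the pigs were alternatives. Single values were compared by exact two-sided permutation over 924 regroupings of 6 and 6 pigs, and ratios used counts with 0.5 added and 95% Welch intervals (scipy 1.17.1). Libraries of different pigs differed by more than sampling noise, and p-values measure the spread between pigs. Promoters and positions came from RefSeq on Sscrofa11.1. The named genes were all matched members and, of each list, its counts with values for the 3 genes of highest count. The other slow partners, CASQ1, MYOZ1, MYLK2 and the genes most like MYLPF and PVALB were added after their values were seen. A gene of the lists and a promoter are not reported here. The members and lists were chosen with earlier results of these data known. Heavy chain ratios, the genes most like MYH2 and MYH4, and the transcript tables were not used, since those genes and transcripts were not matched.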

Additional observations from a re-analysis of the deposited data

Results flagged for a closer look

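In a group of 6 pigs, a value was looked at again when the gap between its most extreme pig and the next, divided by the range of the group, exceeded Dixon's 95% critical value for that number. Of 70 groups tested 11 exceeded it, and chance alone gives about 1 in 20.

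In 10 of the 11 the pig was High MB pig 2, the lowest of its group. Its log2 CPM was 12.53 for MYL1, 12.44 for TNNT3, 11.88 for TNNI2 and 11.36 for ACTN3. Among the other fast-fibre genes it was 11.34 for MYBPC2, 11.94 for ATP2A1, 10.14 for CASQ1, 10.90 for MYOZ1, 12.26 for TPM1 and 5.75 for MYLK2. MYLPF and TNNC2 were lowest in the same pig without exceeding the critical value. Its scaling factor was 1.21, against 0.89 to 1.03 in the other 11 libraries, and its leukocyte marker sum of 46.1 CPM was the highest of all. The part of either in these values was not tested.

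The other value was MYL2, the partner of MYLPF, at 11.13 on the log2 CPM scale in Low MB pig 5, the highest of its group.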

How the results depend on the processing

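DESeq2 called 29 genes and edgeR within the deep libraries 1, against 0 in the main fit and 0 under every other setting run, the replicate block and each left-out pig included. None of the 7 fast genes passed under any setting. MYLPF, MYL1, ACTN3 and PVALB kept their direction in all fits. TNNT3 turned to 0.024 with upper quartile factors, 0.020 with the depth class as a covariate, 0.070 without High MB pig 2 and Low MB pig 4, and 0.11 within the deep libraries. TNNI2 turned to 0.0076 without both those pigs and to 0.068 within the deep libraries, and TNNC2 to 0.10 within the deep libraries. With 1 pig left out, TNNT3 ran from -0.10 to 0.10 (above 0 without High MB pig 2, Low MB pig 1 or Low MB pig 5), TNNI2 from -0.14 to 0.059 and TNNC2 from -0.20 to 0.012 (both above 0 without High MB pig 2 alone). The share of counts ran from -0.48 to 0.066 percentage points with 1 pig left out, above 0 without High MB pig 2 alone, and was 0.28 within the deep libraries.

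The High MB minus Low MB differences of the log2 ratios kept their direction in all settings. Within the 5 deep libraries, where an exact permutation p cannot go below 0.1, they were -0.31 for MYLPF over MYL2, -0.28 for MYL1 over MYL3, -0.33 for TNNT3 over TNNT1, -0.33 for TNNI2 over TNNI1 and -0.39 for TNNC2 over TNNC1. Within the 7 standard libraries, the exact permutation p was 0.0571 for MYLPF over MYL2 (-0.79), TNNT3 over TNNT1 (-0.71) and TNNI2 over TNNI1 (-0.81). Without High MB pig 2 and Low MB pig 4, MYL1 over MYL3 was -0.57 (exact permutation p = 0.0635). TNNT3 over TNNT1 ran from -0.73 to -0.53 with 1 pig left out, with an exact permutation p of up to 0.0519. With the individual number as a replicate block it was -0.63 (exact sign-flip permutation p = 0.0625), and 1 of 6 same-numbered pairs of pigs correlated above 0.1, none of them best with its own number. The block changed no other call. Subsets hold fewer pigs, and otherwise the cause was not tested. The count depth of the 6 abundant genes, at least 127020 per pig, leaves little counting error, whereas PVALB rests on as few as 98 counts.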
